A study of Canis lupus familiaris with 25 samples.

Results

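Of 12 specimens of canine mammary gland without tumour, 4 held clearly more transcript of genes used in mitosis than the other 8, and these 4 high-mitosis glands (dogs 2, 3, 7 and 14) were compared with the 8 other glands (dogs 4, 5, 6, 8, 10, 11, 12 and 13). The 4 were chosen by the mean level of mitosis genes on the same arrays, so every value of a cell cycle gene below is a description of the choice and carries no test. The series held 25 Affymetrix canine arrays, 1 per specimen, from dogs operated on for simple mammary carcinoma that had already spread to a lymph node. Besides the 12 glands there were 13 carcinomas, and 11 of the 12 gland donors, all but dog 8, also gave their own tumour. Specimens had been macrodissected to sections with 70% gland or tumour epithelium, so each value is that of a tissue piece with several cell types. No treatment, hormonal state or reproductive history is stated in the labels for any dog.

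The donors of the high-mitosis glands were a Bobtail of 10 years, a Rottweiler of 10 years, a West Highland White Terrier of 12 years and a mixed-breed dog of 9 years. The donors of the other glands were 11 to 16 years old and of 7 breeds or crosses. No lung metastasis had been seen on radiographs of any patient at surgery. At least 11 of the 12 glands, all but that of dog 8, came from an animal whose mammary carcinoma was also measured, so that both groups share this background.

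The mammary epithelium of the dog renews and regresses with the ovarian cycle. Progesterone, oestrogen, prolactin and growth hormone drive growth of ducts and lobules, partly through paracrine signals such as amphiregulin, and prolactin acts through STAT5 and ELF5 to turn on milk protein genes. A dividing cell copies its DNA with the MCM helicase and ribonucleotide reductase in S phase, then makes cyclin B, CDK1, kinesins and kinetochore proteins for mitosis.

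All values are log2 values of normalized probe set signal, and a difference of 1 is a 2-fold difference of the arrays' signal. The gland arrays were alike in their range, with medians of 3.56 to 3.74 and 47.6% to 48.6% of probe sets above log2 4. The actin signal at the 3′ end exceeded that at the 5′ end by 2.17 to 3.61 in the high-mitosis glands and by 2.45 to 3.43 in the other glands, overlapping ranges of this RNA quality measure. EPCAM, an adhesion protein of epithelium, lay between 13.50 and 14.43 in all 12 glands. Skeletal muscle genes had a mean of 8.52 to 10.08 in 6 glands and of 3.81 to 4.17 in the others, and this muscle signal was present in 2 of the 4 high-mitosis glands (dogs 7 and 14) and 4 of the 8 other glands.

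Of 53 mitosis genes on the list 36 passed the filter on low values, 2 of them only through the high-mitosis glands. The mean over these 36 was 7.50 in the gland of dog 14, 7.24 in dog 3, 6.97 in dog 7 and 6.51 in dog 2. In the other glands it ran from 4.53 to 5.79 with a median of 4.98. The gland just inside the boundary was that of dog 2 at 6.51 and the gland just outside was that of dog 8 at 5.79. The high-mitosis group averaged 7.06 ± 0.42 (SD, n = 4) and the other group 5.06 ± 0.42 (SD, n = 8). The other glands are not called quiescent here, because their mitosis genes spanned a range of their own and dog 8 stood above the remaining 7. In bulk tissue, fewer cells of a type and less RNA per cell cannot be told apart, here or for any cell type described below.

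TOP2A, the topoisomerase that untangles replicated chromosomes, stood at 8.06, 9.37, 8.07 and 9.04 in dogs 2, 3, 7 and 14. In the other glands TOP2A ran from 4.54 to 7.95 with a median of 5.50, and its highest value, in dog 8, was close to the lowest of the high-mitosis glands. CDK1, the kinase that starts mitosis, stood at 7.46, 8.47, 8.12 and 8.76 in dogs 2, 3, 7 and 14 against 4.33 to 6.73 (median 6.18) elsewhere. CCNB2, a cyclin partner of CDK1, stood at 7.20, 8.36, 8.23 and 9.03 in dogs 2, 3, 7 and 14 against 2.92 to 6.23 (median 4.64). Its mean difference of 3.68 was the widest of the mitosis genes when each was read through its brightest probe set. The other CCNB2 probe set gave 2.89, and another probe set of TOP2A gave 3.96. KIF11, the kinesin that separates the spindle poles, stood at 6.11, 7.88, 7.43 and 8.14 against 3.31 to 5.39 (median 4.24). The group ranges of these 4 genes did not overlap, which is what the choice of glands asked for, and dog 2 was the lowest of the high-mitosis glands for each of them.

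**Figure D1:**
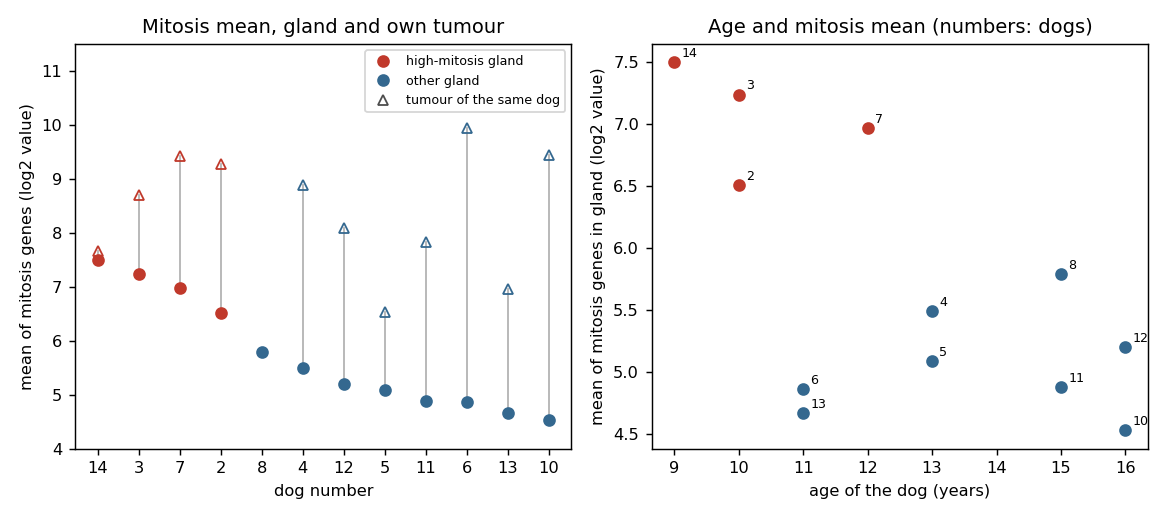
Left, mean log2 value of the mitosis genes (y axis) in each gland (filled circles) and in the tumour of the same dog (open triangles), by dog number and colour-coded by gland group; right, the gland mean against the age of the dog in years. The 4 high-mitosis glands lie between 6.51 and 7.50, above the 8 others at 4.53 to 5.79, and their donors were 9 to 12 years old.

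Across the mitosis list, 35 of the 36 measured genes were higher on average in the high-mitosis glands, with a median difference of 1.96, and in 28 the groups did not overlap. Groups that do not overlap, with the high-mitosis glands above, occurred in 1.19% of all genes, and called genes with higher levels made up 0.365%, but for cell cycle genes both counts follow from the choice. ANLN, at -0.07, was the exception. Genes that copy DNA went along less widely. Of 35 replication genes 34 had a positive difference, with a median of 0.78. RRM2, a subunit of ribonucleotide reductase, differed by 2.26, MCM3 by 1.95 and PCNA, the sliding clamp, by 0.68, with no overlap for any of the 3. Of 14 genes of the G1 phase and its inhibitors 10 were positive, with a median of 0.27. CCNE1, the cyclin of the entry into S phase, differed by 1.11 without overlap. CCND1 and CDK4 differed by 0.06 and 0.09. The inhibitor CDKN1A differed by -1.35 and the antiproliferative gene BTG2 by -1.61, each with overlapping groups.

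Every gene was then compared between the 4 and the 8 glands with limma, and a gene counts as called where its adjusted p was below 0.05 over all 8770 genes tested. The fit and its adjustment take in the cell cycle genes that set the groups, and for those genes a call is only a description of the choice. There were 34 called genes, 0.388% of those tested, of which 32 were higher and 2 lower (0.0228%) in the high-mitosis glands. The median difference of all genes was 0.02. Of the 34, 21 were on the cell cycle lists and test nothing. Among the 8685 genes outside the lists 13 were called, 11 higher and 2 lower. Adjusted over those 8685 genes alone, 10 were called, 8 higher and 2 lower. The 8685 genes still include division genes, named below, that go with the choice of glands. The counts rested strongly on single glands. The total was 125 without dog 2, 18 without dog 7, 9 without dog 3 and 3 without dog 14. Outside the lists it was 99 without dog 2, 26 without dog 6, 23 without dog 8, 9 without dog 7, 5 without dog 3 and 0 without dog 14. The total of lower genes was 48 without dog 2, 12 without dog 6 and 0 without dog 3 or dog 14, so the ratio of higher to lower calls also moved with single glands.

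Of the 11 higher genes outside the lists, 7 encode known parts of the division machinery and belong with the values that set the groups. They were PLK4, the kinase of centriole duplication (difference 2.24), NCAPG2 of condensin II (1.99), the kinetochore proteins SKA3 (2.00) and KNL1 (2.59), the centromere factor MIS18A (1.47), SHCBP1, a protein of the midbody (2.56), and STMN1, which destabilises microtubules (1.71). STMN1 was 11.23, 12.12, 12.08 and 12.35 in dogs 2, 3, 7 and 14 against 9.60 to 11.06 (median 10.27), with dog 8 again the highest of the others. Another 2 carry only provisional names, LOC485338 (3.30 ± 0.45, SE) and LOC487476 (2.42 ± 0.33, SE), and their values followed the same order, with dog 14 highest and dog 2 lowest among the 4. PLK4 and LOC487476 passed the filter on low values only through the high-mitosis glands, as did 5 other genes.

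Outside cell division, 4 genes passed the test over all genes: WNT5B and PIP fell and IGSF10 and NTRK3 rose. Adjusted over the genes outside the cell cycle lists alone, WNT5B (0.0142) and PIP (0.0356) kept the call, and IGSF10 and NTRK3 lost it. That set still held the division genes and provisional names described above, whose small p ease the adjustment. No adjustment without them was made, so the calls of WNT5B and PIP are not free of the choice of glands. WNT5B is a secreted Wnt ligand. It stood at 4.57, 4.27, 4.30 and 4.27 in dogs 2, 3, 7 and 14 and at 5.56 to 7.12 (median 6.30) in the other glands, so every high-mitosis gland lay below every other gland. The difference was -1.94 ± 0.28 (SE), a 3.84-fold lower signal, with a limma adjusted p of 0.00715. The level in the high-mitosis glands was close to the filter limit of log2 4, so the fold is uncertain. Groups without overlap, with the high-mitosis glands below, occurred in 0.342% of all genes.

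PIP, the prolactin-induced protein, is a secreted glycoprotein of apocrine and mammary epithelium. It stood at 11.48, 11.87, 12.59 and 11.54 in dogs 2, 3, 7 and 14 against 13.02 to 15.53 (median 14.37), again without overlap. The difference was -2.49 ± 0.40 (SE), a 5.61-fold lower signal (limma adjusted p = 0.0141), and its other probe set gave -2.48. Both falls lost the call without dog 3 (adjusted p of 0.0518 for WNT5B and 0.0833 for PIP) and without dog 14 (0.0571 and 0.115). With the age of the dog in the model the difference was -1.99 (adjusted p = 0.167) for WNT5B and -1.88 (adjusted p = 0.628) for PIP. Among the other glands, those of dogs 6 and 13, both 11 years old, held the lowest PIP values, 13.02 and 13.66, and WNT5B values of 5.56 and 6.63.

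IGSF10, a large protein of the immunoglobulin superfamily, was 9.39, 7.25, 10.41 and 9.35 in dogs 2, 3, 7 and 14. The other glands ran from 4.92 to 7.82 (median 5.86), and dog 6 at 7.82 lay above dog 3. The difference was 3.23 ± 0.60 (SE), a 9.40-fold higher signal (limma adjusted p = 0.0376), and the other 2 probe sets of IGSF10 gave 2.41 and 3.19. NTRK3, the receptor of neurotrophin-3, was 8.91, 11.06, 10.77 and 10.87 against 7.82 to 9.03 (median 8.52). Here dog 2 lay among the other glands and dogs 3, 7 and 14 above all of them, with a difference of 1.90 ± 0.36 (SE, limma adjusted p = 0.0486). NTRK3 lies outside the rule for named genes and is given because it was 1 of only 4 such calls, chosen after its values were seen. The 2 rises were less firm than the falls: IGSF10 kept its call in 8 of 26 alternative settings and NTRK3 in 6, against 21 for WNT5B and 20 for PIP. With 1 gland left out at a time, IGSF10 stayed below an adjusted p of 0.05 only without dog 2, 3 or 6 and reached 0.203 without dog 14, and NTRK3 did so only without dog 2 and reached 0.291 without dog 14. With the age of the dog in the model the difference was 2.75 (adjusted p = 0.827) for IGSF10 and 1.84 (adjusted p = 0.70) for NTRK3.

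**Figure D2:**
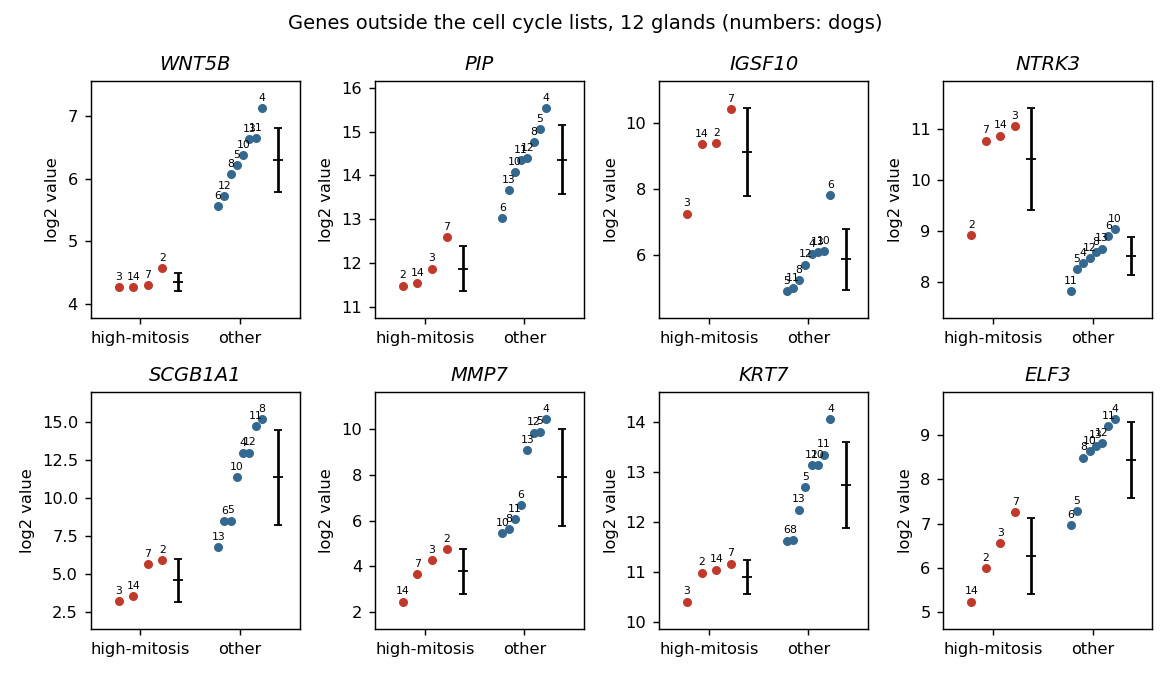
Log2 values (y axis) of 8 genes outside the cell cycle lists in the 4 high-mitosis glands (red) and 8 other glands (blue), sorted by value within a group and numbered by dog; bars show mean ± SD. WNT5B, PIP, SCGB1A1, MMP7 and KRT7 show no overlap between the groups, whereas IGSF10, NTRK3 and ELF3 each have 1 or more glands within the range of the other group.

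Other genes outside the cell cycle lists, named for their large differences or small p, did not pass the adjusted test. SCGB1A1 encodes a secretoglobin, a small secreted protein best known from the airway. It stood at 5.94, 3.24, 5.64 and 3.57 in dogs 2, 3, 7 and 14 and at 6.76 to 15.16 (median 12.13) in the others. The groups did not overlap, and the difference was -6.76 ± 1.49 (SE, limma adjusted p = 0.0878), with a high-mitosis mean of 4.60 that leaves the fold itself uncertain. With age in the model the difference was -2.97 (limma adjusted p = 0.997). Only without dog 13 did the limma adjusted p fall below 0.05, to 0.0360. It was 0.338 without dog 3 and 0.402 without dog 14. LTF, the milk iron-binding protein lactoferrin, differed by -1.57 ± 0.42 (SE, adjusted p = 0.183), and the 4 glands covered 11.98 to 14.49 against 13.71 to 15.44. CAPS, a calcium-binding phosphoprotein, differed by -2.41 ± 0.50 (SE, adjusted p = 0.0621), without overlap. LOC485869 (-4.20), the sialyltransferase gene ST3GAL6 (-1.67), FAM107A (-1.48), PM20D2 (-1.39) and the keratin gene KRT71 (-1.20) also had lower means and adjusted p between 0.0504 and 0.0903. Another probe set of PM20D2 gave only -0.38, and further probe sets of FAM107A gave -1.19 and -1.04. Without dog 2, CAPS (0.0253) and LTF (0.0258) passed the adjusted test, as did LOC485869, FAM107A, PM20D2 and KRT71, and without dog 6 CAPS, FAM107A and KRT71 passed.

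No difference in a hormone receptor passed the test. Of 16 receptors on the list 8 could be tested, 0 were called, and 4 differences were positive and 4 negative around a median of -0.04. An unadjusted limma p below 0.05 was found in 0 of the 8 and in 12.2% of all genes, which for a list of 8 does not set the receptors apart. ESR1, the oestrogen receptor alpha, was 3.34, 5.12, 2.44 and 4.59 in dogs 2, 3, 7 and 14 and 2.26 to 4.85 (median 2.66) in the others. Its difference was 0.75 with a 95% interval from -0.58 to 2.08, on values close to the lower end of the arrays. PGR, the progesterone receptor, was 9.15, 7.53, 9.84 and 7.17 against 7.40 to 9.87 (median 8.94). For PGR the interval ran from -1.73 to 0.83 around -0.45, and the 4 glands split, with dogs 2 and 7 high and dogs 3 and 14 low.

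The prolactin receptor PRLR was 4.76, 5.28, 7.08 and 7.18 in dogs 2, 3, 7 and 14 against 2.89 to 6.99 (median 5.92). The difference was 0.30, with an interval from -1.25 to 1.85. The growth hormone receptor GHR (-0.34, interval -1.21 to 0.52), the IGF1 receptor IGF1R (0.43, interval -0.27 to 1.12) and the glucocorticoid receptor NR3C1 (0.03, interval -1.12 to 1.18) had overlapping groups. GHR was 11.54, 9.95, 12.20 and 9.73 in dogs 2, 3, 7 and 14 against 10.77 to 11.82. Dogs 3 and 14 thus lay below all other glands and dog 7 above them. For IGF1R, dog 7 at 7.53 lay above the other glands, whose highest value was 7.10. The thyroid receptors THRA and THRB differed by -0.28 and -0.10. The intervals of PRLR and NR3C1 reach past 1 in both directions, and equal levels were not shown for any receptor.

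Downstream of the receptors, 10 genes of progesterone and prolactin signalling were measured, 0 of them called. An unadjusted limma p below 0.05 was found for 3 in the higher and 2 in the lower direction. The shares of all genes were 7.02% and 5.18%. AREG, the paracrine growth factor amphiregulin, was 6.33, 8.26, 11.44 and 7.83 in dogs 2, 3, 7 and 14 against 3.36 to 8.91 (median 4.94). All 4 glands lay above 7 of the 8 others, with dog 12 as the exception, and the difference was 3.15 ± 1.05 (SE, adjusted p = 0.282). STAT5A, the transcription factor below the prolactin receptor, was 10.36, 12.92, 11.95 and 13.00 against 9.13 to 12.34 (median 10.22). Its difference was 1.73 ± 0.59 (SE, adjusted p = 0.288), its other 2 probe sets gave 1.68 and 1.95, and STAT5B gave 1.48 ± 0.66 (SE). ELF5, the factor of secretory alveolar cells, was 8.85, 13.09, 11.45 and 13.49 against 8.49 to 11.54 (median 9.81), so dogs 3 and 14 were highest and dog 2 near the bottom. CITED1 (-1.12) and ID4 (-1.26), both regulators known from mammary development, had lower means.

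The milk genes showed the same split within the high-mitosis glands. Of 25 milk genes 12 were tested and 0 called, with 6 differences above and 6 below 0 and a median of -0.05. LALBA, the milk protein alpha-lactalbumin, was 9.88, 15.37, 13.78 and 15.50 in dogs 2, 3, 7 and 14 against 7.72 to 15.06 (median 12.52). LALBA was thus highest in dogs 14 and 3, next in dog 6 of the other group and low in dog 2, and the difference of 1.74 had an interval from -1.53 to 5.00. CSN2, beta-casein, was 11.23, 15.36, 14.28 and 15.41 against 3.23 to 15.36 (median 14.78), with dog 8 by far the lowest. BTN1A1, a butyrophilin of milk fat droplets, differed by 0.83 with an interval from -2.14 to 3.80. The 4 milk genes with an unadjusted limma p below 0.05 were all lower, against 5.18% of all genes. They were the lysozyme LYZF2 (-2.99), LTF, the lactose synthase subunit B4GALT1 (-1.22) and the antibody transporter PIGR (-1.08).

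**Figure D3:**
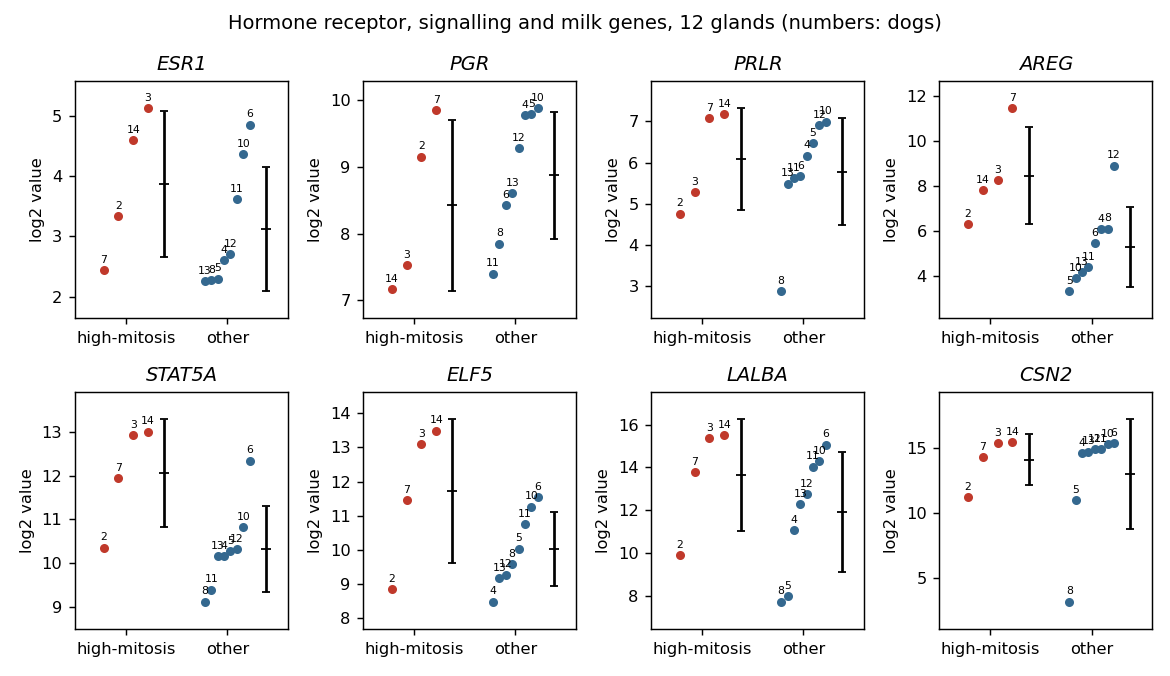
Log2 values (y axis) of 3 hormone receptors, 3 signalling genes and 2 milk genes in the 4 high-mitosis (red) and 8 other glands (blue), sorted within a group and numbered by dog, with mean ± SD. Every panel shows overlapping groups; dogs 3 and 14 lead the high-mitosis glands for STAT5A, ELF5, LALBA and CSN2, and dog 2 is the lowest of the 4 for each.

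Epithelial identity genes lay on the lower side. Of 23 luminal genes 16 had a negative difference, with a median of -0.69 against 0.02 for all genes. None was called, 9 of 23 had an unadjusted limma p below 0.05 in the lower direction against 5.18% of all genes, and 0 in the higher direction. KRT7, a keratin of simple epithelium, was 10.98, 10.40, 11.16 and 11.04 in dogs 2, 3, 7 and 14 and 11.62 to 14.05 (median 12.91) in the others. The groups did not overlap, with a difference of -1.83 ± 0.41 (SE, adjusted p = 0.0909) and -1.67 from its other probe set. KRT8, another keratin of luminal cells, was 12.02 to 12.61 against 12.65 to 14.26, and CDH1, E-cadherin, 6.64 to 7.54 against 7.64 to 9.24, both also without overlap. ELF3, an epithelial transcription factor, differed by -2.17 ± 0.49 (SE, adjusted p = 0.0909), and the claudin CLDN4 by -1.10 ± 0.29 (SE). EPCAM differed by -0.11 and GATA3 by -0.81, and ELF5 was the luminal gene with the largest positive difference. Without dog 6 of the other group 3 luminal genes were called, KRT7 at an adjusted p of 0.0476 and ELF3 at 0.0357 among them, and KRT7 passed without dog 8 (0.0445).

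Basal and myoepithelial genes had 12 of 17 negative differences, a median of -0.19 and 0 called. CDH3, P-cadherin of basal cells, was 3.02 to 3.19 in the high-mitosis glands and 3.30 to 6.08 in the others, without overlap but below the filter limit in all 4. ITGB4, the integrin of hemidesmosomes, differed by -0.61 ± 0.23 (SE). The list of basement membrane and integrin genes leaned the other way, with 14 of 20 differences positive, a median of 0.21 and 0 called. The mean of this list was 9.53 in dog 2 but 8.64 to 8.90 in dogs 3, 7 and 14. In the other glands it ran from 8.32 to 9.17 (median 8.89), so only dog 2 lay above them. The 2 genes of the list with the smallest p had opposite signs. LAMB3, a chain of laminin-332, differed by -1.13 ± 0.31 (SE). ITGB1, an integrin subunit, differed by 0.63 ± 0.25 (SE), with -0.23 from its other probe set. ACTA2 and MYH11, contractile proteins of myoepithelium and smooth muscle, differed by -0.02 and -0.17.

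Stroma leaned the other way. Of 33 stromal and collagen genes 24 were positive, with a median of 0.41, 2 had an unadjusted p below 0.05 in the higher direction (7.02% of all genes) and 0 were called. FN1, fibronectin, was 14.20, 12.68, 14.25 and 12.55 in dogs 2, 3, 7 and 14 against 10.09 to 12.62 (median 12.12), and 3 of the 4 glands lay above every other gland. The difference was 1.61 ± 0.48 (SE, adjusted p = 0.220), and 3 further probe sets of FN1 gave 1.74, 2.06 and 2.09. POSTN, the matrix protein periostin, was 11.56, 10.48, 12.62 and 9.90 against 3.50 to 10.72 (median 8.39), a difference of 3.69 ± 1.25 (SE, adjusted p = 0.288). The fibrillar collagens COL1A1 (0.92 ± 0.62, SE) and COL3A1 (0.99 ± 0.53, SE) overlapped. The stromal lean rested on dog 2: without it the median difference of the list was 0.04.

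Matrix proteases had 9 of 14 differences below 0, a median of -0.39 and 0 calls. MMP7, matrilysin, a protease of glandular epithelium, was 4.76, 4.26, 3.67 and 2.46 in dogs 2, 3, 7 and 14 against 5.46 to 10.44 (median 7.88). The groups did not overlap (difference -4.10 ± 1.03, SE, adjusted p = 0.155). MMP13, a collagenase, was 2.48 to 2.86 in all 4 high-mitosis glands, at the lower end of the arrays, and reached 9.36 in the others, where only dog 10 at 2.38 was as low. MMP16, a membrane-bound protease, had the opposite sign, 1.51 ± 0.49 (SE).

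Immune and vascular genes showed no call. Macrophage and neutrophil genes were negative in 17 of 21, with a median of -0.37. In this list 5 had an unadjusted limma p below 0.05, all lower, against 5.18% of all genes. They were the neutrophil attractant CXCL8 (-3.42 ± 1.29, SE), the calgranulin S100A8 (-2.61 ± 1.00, SE), SPP1, and the complement components C1QB and C1QC. The mean of this list was 9.93 in dog 2, 9.05 in dog 7, 7.50 in dog 14 and 7.28 in dog 3, against 8.04 to 10.25 in the other glands, so dogs 3 and 14 were below all other glands and dog 2 among the highest. T and NK cell genes had a median of -0.24 (8 of 10 negative), B and plasma cell genes -0.36 (5 of 8) and interferon and antigen presentation genes -0.26 (16 of 22). CD3E, part of the T cell receptor complex, differed by 0.00, and the cytotoxic T cell marker CD8B by -1.67 ± 0.71 (SE). Mast cell genes had a median of 0.58 over 5 genes, with the protease CPA3 at 9.16 to 10.32 in the high-mitosis glands and 2.66 to 10.90 in the others.

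Endothelial genes had 14 of 18 differences below 0 and a median of -0.24. The mean of this list was 8.83 in dog 2 but 6.92 to 6.98 in dogs 3, 7 and 14, against 6.16 to 8.37 in the other glands. Adipocyte genes had a median of 0.41 (9 of 13 positive), with list means of 10.31 to 10.67 in the high-mitosis glands inside the range of 7.11 to 11.69 in the others. Skeletal muscle genes had a median of -0.41, and their signal was spread over both groups in equal shares. Within the 6 glands with muscle signal the difference of WNT5B was -2.06 and that of PIP -2.06, and within the 6 without it -1.82 and -2.92. Neither gene was called within either set of 2 against 4 glands (adjusted p of 0.12 for both genes with muscle signal and 1.0 without it), where 1 gene in all was called with muscle signal and 0 without it.

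The immediate early genes were the list with the lowest median outside the cell cycle, -1.42. All 13 measured members had a negative difference, but 0 were called. Of the 13, 6 had an unadjusted limma p below 0.05, against 5.18% of all genes in the lower direction. These transcription factors and feedback genes are induced rapidly by growth factors and other stimuli. FOS was 11.87, 11.64, 12.03 and 10.85 in dogs 2, 3, 7 and 14 against 11.86 to 15.30 (median 14.33), a difference of -2.25 ± 0.62 (SE, adjusted p = 0.189). JUNB was 6.75, 5.99, 5.11 and 6.00 against 6.03 to 10.04 (median 8.78). The other glands were themselves uneven: the list means of dogs 6, 8 and 11 (9.18 to 9.84) lay within the 8.81 to 9.89 of the high-mitosis glands, and those of dogs 10 and 13 stood at 11.30 and 11.61. MYC, a driver of cell growth, differed by -0.22 ± 0.26 (SE).

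Genes of glycolysis and hypoxia were negative in 16 of 18, with a median of -0.39 and 0 calls. An unadjusted limma p below 0.05 was found in 4, all lower, against 5.18% of all genes. PFKP, a phosphofructokinase, differed by -1.51 ± 0.64 (SE), and LDHA, lactate dehydrogenase, by -0.08 ± 0.20 (SE). Growth factor ligands and receptors of the EGF, IGF and FGF families split into 10 positive and 13 negative, with AREG at the upper end and IGFBP5 (-2.35 ± 0.99, SE), EGF (-2.13 ± 0.67, SE) and FGFR1 (-1.48 ± 0.54, SE) at the lower. EGF was 3.01, 2.74, 6.56 and 3.71 in dogs 2, 3, 7 and 14 against 4.98 to 7.02 (median 6.20), low in 3 of the 4 glands but not in dog 7. Its limma adjusted p was 0.249. It fell below 0.05 only without dog 7 (0.0418), the gland that did not share the low value. Chaperones and lipid synthesis genes had medians of 0.16 and 0.02. Targets of oestrogen had a median of 0.28 over 9 genes, with 5 positive, and among them FOXA1, a cofactor of the oestrogen receptor, differed by -2.16 ± 1.09 (SE). Of 13 Wnt and Notch genes WNT5B alone was called, and the median of that list was 0.26.

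**Figure D4:**
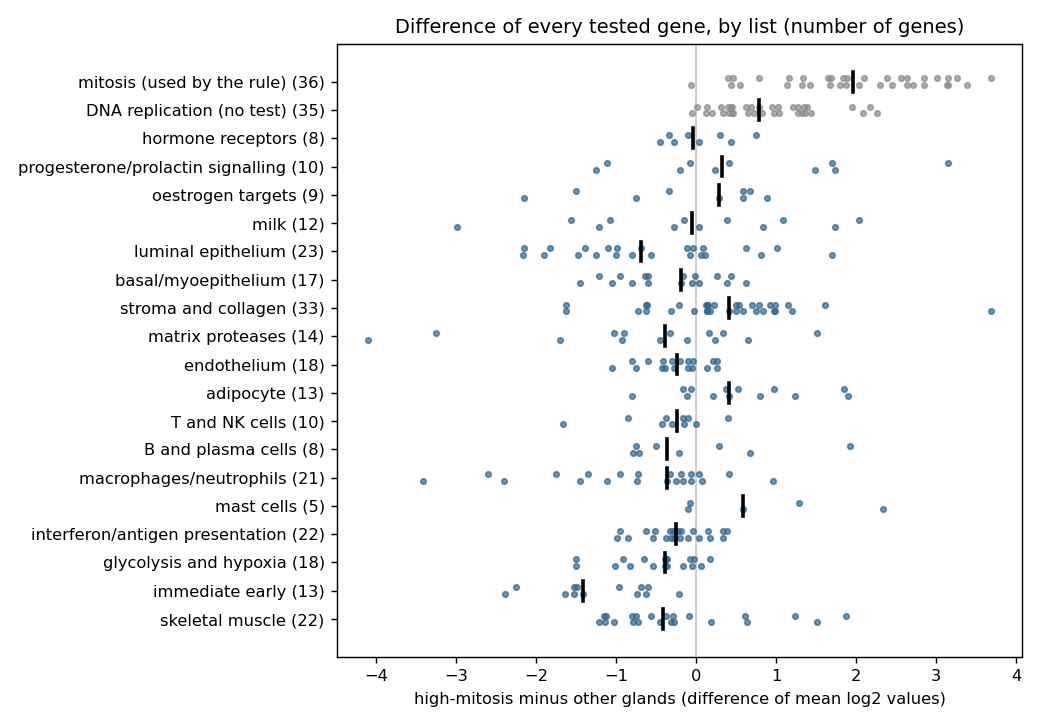
Difference of mean log2 values, high-mitosis minus other glands (x axis), of every tested gene (points) in 20 gene lists (y axis, with the number of genes), with the list median as a black bar; grey marks lists tied to the choice of glands. The mitosis and replication medians lie at 1.96 and 0.78, the immediate early and luminal medians at -1.42 and -0.69, and the other medians between -0.41 and 0.58.

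The 4 high-mitosis glands were not alike in the levels of the other gene lists. The glands of dogs 3 and 14 resembled each other most, with a correlation of 0.963 across genes, while dogs 2 and 7 each resembled the gland of dog 13 most, at 0.944 and 0.948. Dogs 3 and 14 combined the highest mitosis means with the highest milk list means of the 4 (11.52 and 11.80). They also had low macrophage, endothelial and T cell lists. The other glands of dogs 6, 10 and 11 had higher milk means still (12.18, 11.93 and 12.22). Dog 2 had the lowest milk and luminal list means of the 4 (9.65 and 8.31) and the highest stromal one (11.95). Dog 7 lay between, with stroma at 11.14 and milk at 10.65. Dog 8, the other gland with the highest mitosis mean, had the lowest milk mean of all 12 (8.27) and also the lowest adipocyte mean (7.11). High mitosis gene levels therefore occurred with milk list means from 9.65 to 11.80, inside the range of 8.27 to 12.22 in the other glands.

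**Figure D5:**
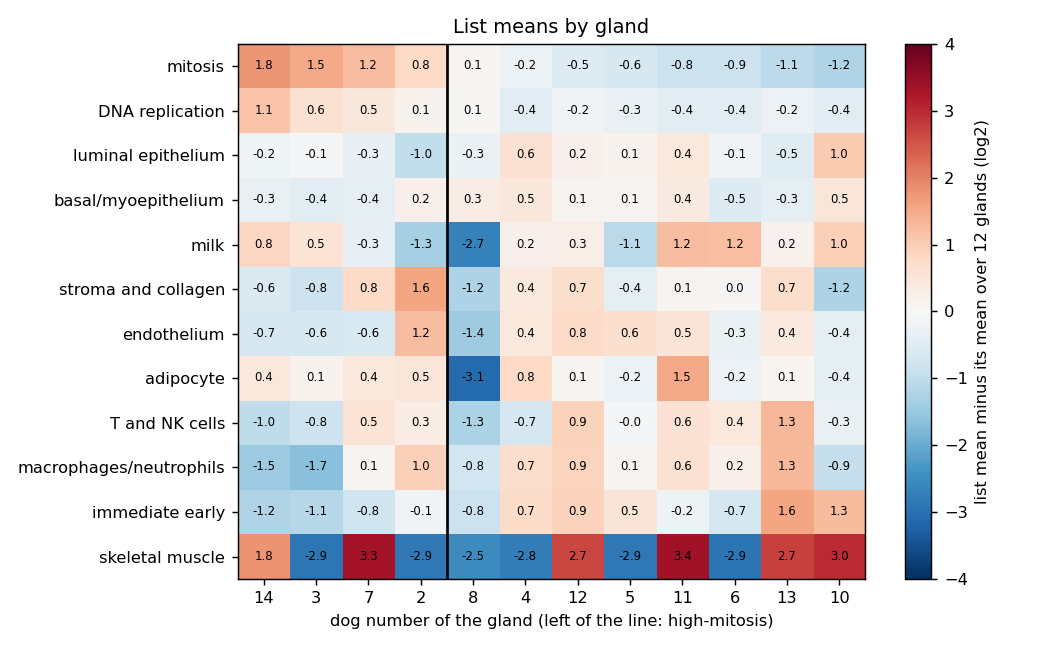
Mean log2 value of each gene list (y axis) in each gland (x axis, by dog number, high-mitosis glands left of the line), as the difference from the mean over the 12 glands, with the colour scale in log2 units. Dogs 14 and 3 share low macrophage and endothelial lists with raised milk lists, dog 2 shows the reverse, and muscle signal marks 6 glands across both groups.

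The dogs' own measures were taken from the labels and were independent of the choice. The donors of the high-mitosis glands were 10, 10, 12 and 9 years old (dogs 2, 3, 7 and 14; mean 10.25 ± 1.26, SD, n = 4), and those of the other glands 11 to 16 (median 14.0; mean 13.75 ± 2.05, SD, n = 8). The difference of -3.50 years had an exact permutation p of 0.0202 (2-sided) and 0.0606 after adjustment over the 3 measures tested, so it did not pass. Tumour size differed by -0.11 cm (adjusted p = 1.0, exact permutation test) and survival after surgery by 0.92 months (adjusted p = 1.0, exact permutation test, 4 against 6 dogs with a stated survival). Age and group moved together, and with age in the model the count of called genes was 4, of which 1 lay outside the cell cycle lists. The part of age in each gland difference was not otherwise tested.

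The tumours of the same dogs were not used to choose the glands and were compared in the same way. The mean of the same mitosis genes was 9.28, 8.70, 9.43 and 7.66 in the tumours of dogs 2, 3, 7 and 14 (8.77 ± 0.80, SD), and 6.53 to 9.94 (median 8.09) in those of the 7 other dogs. The ranges overlapped, and each of the 4 tumours still lay above its own gland, by the least in dog 14. In the tumours 0 of 8739 genes were called between the 2 sets of dogs (0%), the smallest adjusted p was 0.815, and 486 genes (5.56%) had an unadjusted limma p below 0.05. Of 44 mitosis genes tested there, 1 had an unadjusted p below 0.05, and their median difference was 0.56 against 0.03 for all genes.

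WNT5B was 4.25, 5.11, 6.20 and 7.29 in the tumours of dogs 2, 3, 7 and 14 and 4.80 to 10.47 (median 9.17) in the others, a difference of -2.37 ± 1.12 (SE, adjusted p = 0.815). PIP had the opposite sign in the tumours, 2.27 ± 2.11 (SE), with values from 2.72 to 15.58 among the 7 other dogs. LALBA was 12.74 and 11.86 in the tumours of dogs 3 and 14, 12.14 in that of dog 6, 6.86 in dog 7, 5.03 in dog 2 and at most 2.57 in the remaining 6. The 3 dogs with the highest LALBA in the gland thus also had the 3 highest values in the tumour. A direct test of whether the gland difference departed from the tumour difference, on 22 arrays of 11 dogs with the dog as a block, called 0 of 9216 genes (0%). The smallest adjusted p was 0.873, and 522 genes (5.66%) had an unadjusted p below 0.05. The gland differences of WNT5B and PIP were therefore not shown to be particular to the gland, with interaction values of 0.40 ± 1.06 (SE) and -4.70 ± 2.23 (SE).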

How the data were processed

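The authors deposited normalized log2 values, 1 per probe set and array, from biotin-labelled RNA on Affymetrix canine arrays, per the labels' protocols. The submitters' processing notes name Partek, GCRMA and RMA, with neither role nor version. The annotation was not given in the sources used here. Depth does not apply to arrays, and the number of dogs limits the precision. The labels tie each array to a dog, which is the replicate.

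The 111 control probe sets of 43035 were left out. Platform annotation gave 1 symbol for 29264 probe sets and several for 439, which stayed unnamed, and 27690 Entrez IDs matched a RefSeq table (UU_Cfam_GSD_1.0), which changed 0 symbols. Probe sets above log2 4 in at least 4 of 12 glands were tested, each gene through its brightest one. Group comparisons used R 4.3.3 and its package limma 3.58.1 (lmFit, eBayes with trend), 2-sided, with Benjamini-Hochberg adjustment at 0.05 and 95% intervals. Label measures had exact permutation tests (scipy 1.17.1; 495 splits of 12 dogs for age). The interaction of tissue and dog group had the dog as a block: gland and tumour deviations from their means correlated within each of the 11 dogs (0.11 to 0.434; median -0.063 for different dogs). Alternatives are in the closing section.

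The glands, the 30 gene lists and the tests were chosen with earlier results of these data known. Named genes are TOP2A, CDK1, CCNB2 and KIF11 (MKI67 was not among the tested genes). They include the 10 largest rises and falls among called genes without overlap outside the cell cycle lists. Where fewer met these conditions, genes with the smallest p, called or not and with or without overlap, filled the places. All tested hormone receptors and progesterone or prolactin signalling genes are named, as are LALBA, CSN2 and BTN1A1. Each remaining list gave its called members or the 2 with the smallest p. Other genes illustrate their list and were chosen after their values were seen. In the epidermis and erythrocyte lists 0 genes passed the filter.

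On simulated arrays with 8770 genes the gland comparison recovered 83% of differences of 2 and 91% of differences of 4 (log2; 100 genes each), with 13 false calls, and made 0 calls where nothing differed. The simulated noise was normal and independent between genes, so these rates do not cover genes that vary together across glands.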

Additional observations from a re-analysis of the deposited data

Results flagged for a closer look

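The 236 sets of 4 to 8 values examined held gene values and list means of the glands and the dogs' age, tumour size and survival. In 14 of them, all of gland values, 1 gland lay far from the others of its group. Chance gives about 1 in 20 for independent sets, and the count is near that share. These sets share glands and genes, so the share is only a rough guide, and no explanation is offered. Dog 2 stood apart among the high-mitosis glands for WNT5B (4.57, next 4.30), ITGB4 (9.67, next 9.26), NTRK3 (8.91, next 10.77), the endothelial list mean (8.83, next 6.98) and the Wnt and Notch list mean (8.22, next 7.39). Dog 8 was the lowest of the other glands for PRLR (2.89), NR3C1 (4.60) and CSN2 (3.23), and for the list means of adipocytes (7.11) and lymphatic vessels and nodes (4.57). Dog 6 was the highest other gland for IGSF10 (7.82) and the lowest for ITGB4 (9.02) and FDPS (7.80), an enzyme of the cholesterol pathway, and dog 10 was the highest for CITED1 (8.63).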

How the results depend on the processing

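The count of called genes, 34, was between 31 and 49 with another filter, centring, quantile normalization, the variance rule for probe sets, no trend, or muscle, adipocyte or (added after seeing the data) macrophage signal as a covariate. It was 4 with age as a covariate, 97 as a slope on the mitosis mean, 0 in the glands without muscle signal and 1 in those with it, the latter chosen after seeing the data. Of the 34, 21 were on the cell cycle lists and follow from the choice of glands. Outside those lists the count, 13, was between 12 and 24 with the filter, scaling, probe set, trend and tissue signal settings. It was 1 with age and 61 as a slope. Leaving out each gland gave 3 to 125 calls in total, the extremes being dogs 14 and 2. The age difference ran from -4.08 to -3.08 years, and its adjusted p from 0.0364 (without dog 6, 7 or 13) to 0.182. Tumours and the interaction gave 0 calls in every setting, the interaction also with no replicate block. Of the 13 genes called outside the cell cycle lists, 10 kept the call when p-values were adjusted over those outside genes alone, IGSF10, NTRK3 and STMN1 not. Division genes remained among those outside genes, so this adjustment was not free of the choice of glands. Of 70 uncalled named genes 11 gained a call in some of the 26 settings. Among the named genes 0 changed sign together with a call in the main or the other setting. Sign changes without a call were not counted. Values near log2 2 to 4 are at the floor of these arrays, so folds of WNT5B, SCGB1A1, MMP7 and MMP13 are uncertain.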
